A study of Mus musculus with 18 samples.

Results

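The genes described here encode the signalling chains of the B-cell receptor and proteins that work with them. There are 9 of them, Cd79a, Cd79b, Ms4a1, Blnk, Blk, Btk, Cd22, Cd72 and Fcrla, chosen by name from 25589 genes on a mouse whole-genome array. All 9 were found on the array, by 15 probes of 60 bases out of 43426, and all 9 passed the filter on dim probes in every comparison. Their RNA was measured in cells of the mouse thymus, the organ in which T cells mature. After an antibody to DLL4, 6 of the 9 rose in total thymocytes (1.12% of all genes tested did) and 8 of the 9 in CD4-CD8- cells (2.74% of all genes), while none passed the test in the CD44+CD25- part of those cells (0.041% of all genes).

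C57BL/6 mice had received anti-DLL4, which binds one of the ligands that switch on Notch, or an isotype control monoclonal antibody, and thymi were harvested at 2 weeks. There were 7 samples of total thymocytes (3 from anti-DLL4 and 4 from control mice), 6 of sorted CD4-CD8- or DN cells (3 of each antibody) and 5 of sorted CD4-CD8-CD44+CD25- or DN1 cells (3 and 2), each hybridised to 1 one-colour array. The design text counts 3 control samples of thymocytes where the labels list 4, and all 4 were used. No label ties a sample to an animal, so p-values measure the spread between samples, which may be partly technical, and arrays of different populations may share animals. Neither gate, as the labels give it, uses a protein specific to the B lineage.

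The B-cell receptor is a membrane immunoglobulin that binds antigen and a pair of signalling chains, CD79A and CD79B, whose tails carry an activation motif (ITAM) with paired tyrosines. Kinases of the Src family, BLK among them, phosphorylate those tyrosines. The adaptor BLNK then brings the kinase BTK to phospholipase C gamma 2, while CD22 and CD72 carry inhibitory motifs (ITIMs) that hold the signal back. In the thymus most cells are T-cell precursors, which depend on Notch signals, and B cells are a small population. In RNA from bulk samples, more cells that express a gene cannot be told apart from more RNA of it per cell.

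Cd79a, Cd22, Blk and Ms4a1 have a pair of probes each, Cd72 has more, and the others have 1. The sequences below are the ones on which the reading of a gene depends, since for Cd79a, Cd22 and Blk the probes of one gene gave different answers. They are printed from the scanner files. Capitals mark codons that encode an ITAM pattern (a tyrosine, any 2 residues, a leucine or isoleucine, then after 6 to 8 residues the same block again) or, in Cd22, an ITIM pattern.
Cd79a A_51_P463191: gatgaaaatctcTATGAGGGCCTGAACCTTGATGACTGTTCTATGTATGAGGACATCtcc
Cd79a A_52_P651316: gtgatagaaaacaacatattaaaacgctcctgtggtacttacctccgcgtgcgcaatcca
Cd22 A_51_P448140: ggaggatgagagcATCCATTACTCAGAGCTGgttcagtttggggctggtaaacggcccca
Cd22 A_52_P466268: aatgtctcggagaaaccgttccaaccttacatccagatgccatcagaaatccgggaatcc
Blk A_52_P15405: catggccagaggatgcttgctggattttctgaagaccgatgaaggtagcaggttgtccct
The first Cd79a probe covers the codons of the receptor's own ITAM, in 45 of its 60 bases, and its genomic span of 189 bases (mm8, chr7:24610044-24610232, + strand) shows that it crosses an intron. Codons of the ITAM pattern, in any of 3 reading frames, occurred in 72 of all 43426 probes (0.166%). The second Cd79a probe (mm8, chr7:24608094-24608351) lies 1693 bases nearer the gene's 5′ end, also across an intron. The first Cd22 probe lies within 60 bases of genome (mm8, chr7:30575331-30575390, - strand) and holds an ITIM pattern, which 10.1% of all probes also hold. The second (mm8, chr7:30584884-30586208) lies 9494 bases upstream of it across an intron. The Blk probe shown (mm8, chr14:62332606-62333743, - strand) also crosses an intron and lies 5191 bases upstream of the brighter Blk probe, A_51_P143990.

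A level below is log2 of a probe's signal over the array's own 75th percentile, so 0 means a signal equal to that percentile. A gene with several probes is given by its brightest probe, meaning the brightest on average over all arrays, unless another is named. A difference is anti-DLL4 minus control in levels, with its standard error from the limma model, and a call means a Benjamini-Hochberg adjusted p below 0.05 across every gene tested. The median of all genes tested moved with the antibody by -0.47 in thymocytes, -0.68 in DN cells and -0.01 in DN1 cells. Medians over genes, and differences marked as relative to all genes, have that shift taken out. Other differences of single genes given with a standard error include it. Every p-value and call tests the difference with the shift left in, also where a value relative to all genes or probes is given. Signal varied between arrays: the 75th percentile was 442.8 to 4295.4 in thymocytes, 977.7 to 3641.7 in DN1 cells and 741.3 to 1076.8 in DN cells of treated mice, while the DN control arrays were at 260.2, 337.9 and 675.5. Between 59.9% and 84% of spots were well above background on each array. Against its gates, Cd8a lay between 5.56 and 7.84 in all thymocyte samples and between -1.58 and 4.59 in the sorted ones, whereas Cd4 was at -0.75 or lower on all arrays but the third anti-DLL4 thymocyte array (0.72) and did not mark thymocytes.

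**Figure D1:**
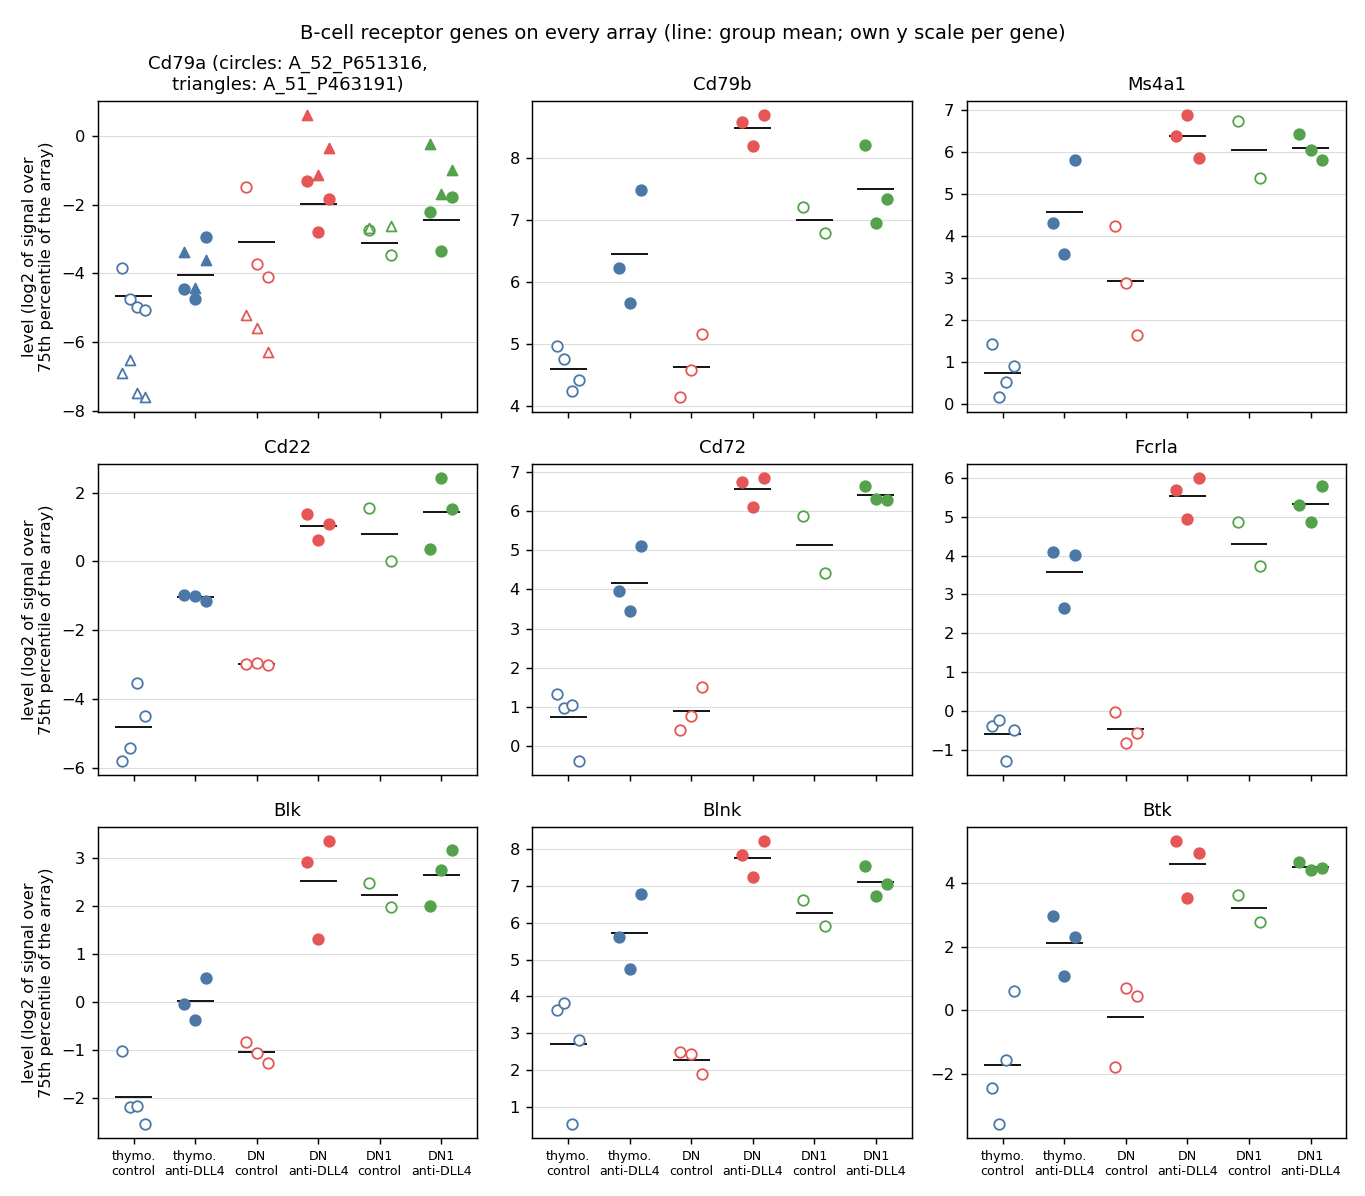
Level of each of the 9 genes (y axis, log2 of signal over the array's 75th percentile; each panel has its own scale) in the 6 groups (x axis), with 1 point per array, open for control and filled for anti-DLL4, and a line at the group mean. In 8 panels the filled points of thymocytes and of DN cells lie above all open points of the same population, and Cd79a is shown by both of its probes, of which the triangles separate the groups and the circles do not.

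In total thymocytes, 6 of the 9 genes were higher with anti-DLL4 (Ms4a1, Cd22, Cd72, Fcrla, Blnk and Btk), against 1.12% of all genes tested, and none was lower. Relative to all genes, the differences ran from 1.07 for Cd79a to 4.64 for Fcrla, with a median of 3.91. In 8 of the 9, all but Cd79a, every anti-DLL4 array lay above every control array, which held for 5.06% of all genes. In DN cells 8 of the 9 were higher, again all but Cd79a, against 2.74% of all genes tested. There the differences relative to all genes ran from 1.8 to 6.68 with a median of 4.68. The groups did not overlap in 8 of the 9, against 9.67% of all genes.

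Fcrla, an Fc receptor-like protein found inside B cells, had the largest difference of the 9 in both populations. Its levels were 4.08, 2.64 and 4.01 in anti-DLL4 thymocytes and -0.39, -0.22, -1.27 and -0.48 in control thymocytes. That is 4.16 ± 0.51 (SE) higher, 17.9-fold, or 4.64 relative to all genes (limma adjusted p = 0.000803). In DN cells it stood at 5.68, 4.95 and 5.99 with anti-DLL4 and at -0.03, -0.82 and -0.55 with the control, a difference of 6.01 ± 0.54 or 64.4-fold (limma adjusted p = 6.21e-05). The lowest treated array lay 2.86 above the highest control array in thymocytes and 4.98 above it in DN cells.

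Cd72, a receptor of B cells with inhibitory motifs, was at 3.97, 3.44 and 5.12 in anti-DLL4 thymocytes and at 1.32, 0.97, 1.05 and -0.38 in controls, a difference of 3.44 ± 0.55 (limma adjusted p = 0.00523). In DN cells it was at 6.76, 6.11 and 6.85 against 0.40, 0.77 and 1.5, a difference of 5.68 ± 0.59 (limma adjusted p = 0.000181). No treated array overlapped a control array of its population. All 3 Cd72 probes were called in DN cells, with differences of 4.94, 5.24 and 5.68, while in thymocytes the brightest alone was called and the other two differed by 2.39 (adjusted p = 0.0838) and 2.54 (adjusted p = 0.0695).

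Ms4a1 encodes CD20, a membrane protein of B cells. It stood at 4.31, 3.58 and 5.82 in anti-DLL4 thymocytes and at 1.42, 0.15, 0.52 and 0.89 in controls, a difference of 3.83 ± 0.65 (limma adjusted p = 0.00776). In DN cells the levels were 6.37, 6.88 and 5.86 with anti-DLL4 and 4.23, 2.87 and 1.65 with the control, a difference of 3.45 ± 0.70 (limma adjusted p = 0.0109). The control DN arrays were spread over 2.58 log2 units, the treated ones over 1.02, and the groups did not overlap. The second Ms4a1 probe, 401 bases upstream in the genome, was called in both populations too, with differences of 4.61 and 4.57.

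Cd22, a sialic acid-binding lectin that restrains the receptor, was at -0.97, -1.0 and -1.16 in anti-DLL4 thymocytes and at -5.79, -5.43, -3.55 and -4.49 in controls. The difference was 3.77 ± 0.60 (limma adjusted p = 0.00479), and the treated arrays lay within 0.19 of each other. In DN cells the levels were 1.37, 0.62 and 1.09 with anti-DLL4 and -2.99, -2.94 and -3.0 with the control, a difference of 4.00 ± 0.64 (limma adjusted p = 0.00262). These values come from the probe with the ITIM codons. The other Cd22 probe was well above background on 9 of the 18 arrays, and its differences were 0.44 ± 1.29 in thymocytes and -0.07 ± 1.38 in DN cells, neither called.

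Of the signalling chains, Cd79b was at 6.22, 5.65 and 7.48 in anti-DLL4 thymocytes and at 4.96, 4.75, 4.24 and 4.42 in controls. The groups did not overlap, but the difference of 1.86 ± 0.49, 3.63-fold, missed the threshold (limma adjusted p = 0.0721). In DN cells Cd79b rose: it was at 8.58, 8.19 and 8.69 with anti-DLL4 and at 4.13, 4.58 and 5.16 with the control, a difference of 3.86 ± 0.53 or 14.5-fold (limma adjusted p = 0.000768). Every treated DN array lay at least 3.03 above every control DN array.

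Cd79a gave different answers by its probes. The brighter one on average, A_52_P651316, had the higher group mean only in control thymocytes (-4.65 against -7.13) and control DN cells (-3.1 against -5.7). A_51_P463191 had the higher mean in treated DN (-0.29 against -1.98) and treated DN1 cells (-0.97 against -2.45). It was also higher in control DN1 cells (-2.64 against -3.1) and treated thymocytes (-3.8 against -4.05). The exception made of Cd79a in the counts by gene thus rests on a probe chosen through its control signal. By A_52_P651316, thymocytes were at -4.46, -4.75 and -2.94 with anti-DLL4 and at -3.83, -4.73, -4.99 and -5.06 with the control. The groups overlapped and the difference of 0.60 ± 0.68 was not called (limma adjusted p = 0.67). In DN cells that probe read -1.31, -2.79 and -1.84 against -1.47, -3.72 and -4.10, where the first control array fell among the treated ones and the difference of 1.12 ± 0.73 was not called (limma adjusted p = 0.297).

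By the probe over the ITAM codons, A_51_P463191, thymocytes were at -3.38, -4.41 and -3.61 with anti-DLL4 and at -6.91, -6.51, -7.49 and -7.61 with the control. DN cells were at 0.61, -1.14 and -0.35 against -5.21, -5.60 and -6.28. The groups were far apart in both. On none of the 7 control arrays of these populations was this probe well above background, so the control has a bound and not a level. By group means, Cd79a by this probe was at least 7.8-fold higher in anti-DLL4 thymocytes (limma adjusted p over all probes = 0.00632). In DN cells its mean was at least 40.3-fold higher (limma adjusted p over all probes = 0.000186). The bound sets the treated mean against the lowest signal well above background on each control array or the probe's own, whichever was higher. It allows for dim control signal and not for the spread between arrays. The 95% limma intervals of the differences as measured, relative to all probes, began at 2.6 in thymocytes and 4.83 in DN cells.

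Inside the cell, Blnk, the adaptor that links the receptor's kinases to phospholipase C gamma 2, was at 5.61, 4.74 and 6.78 in anti-DLL4 thymocytes and at 3.63, 3.81, 0.56 and 2.82 in controls. The difference of 3.00 ± 0.70 was called (limma adjusted p = 0.0457), although control arrays alone spanned 3.25. This call was lost with slide as a block (adjusted p = 0.141) or as a random block (0.0501) and with the replicate block (0.0809), and with 1 thymocyte array left out the adjusted p ran from 0.0413 to 0.114. In DN cells the levels were 7.82, 7.23 and 8.20 against 2.51, 2.43 and 1.89, a difference of 5.47 ± 0.75 or 44.4-fold (limma adjusted p = 0.000768). The DN groups were tight and far apart.

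Btk, the kinase that activates phospholipase C gamma 2, was at 2.97, 1.08 and 2.32 in anti-DLL4 thymocytes and at -2.42, -3.55, -1.55 and 0.62 in controls, a difference of 3.85 ± 0.87 (limma adjusted p = 0.038). The fourth control array came within 0.46 of the lowest treated array. This call was lost with quantile normalization (limma adjusted p = 0.0581) and on thymocyte arrays alone (0.156), but kept with slide as a block (0.0232). With 1 thymocyte array left out the adjusted p ran from 0.00728 to 0.142, and the call lasted only without the fourth control array. In DN cells Btk was at 5.31, 3.54 and 4.93 against -1.78, 0.69 and 0.45, a difference of 4.8 ± 0.93 (limma adjusted p = 0.00827), and the groups did not overlap.

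Blk, a Src-family kinase of B cells, was at -0.03, -0.37 and 0.51 in anti-DLL4 thymocytes and at -1.01, -2.19, -2.17 and -2.53 in controls. The difference of 2.01 ± 0.54 was not called (limma adjusted p = 0.0751), although the groups did not overlap. In DN cells Blk rose from -0.82, -1.06 and -1.26 to 2.93, 1.32 and 3.36, a difference of 3.58 ± 0.58 (limma adjusted p = 0.00276). The upstream Blk probe, A_52_P15405, read -0.75, -3.13 and -0.95 against -1.50, -3.63 and -2.15 in DN cells, overlapping groups with a difference of 0.82 ± 0.80 that was not called (adjusted p = 0.505).

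**Figure D2:**
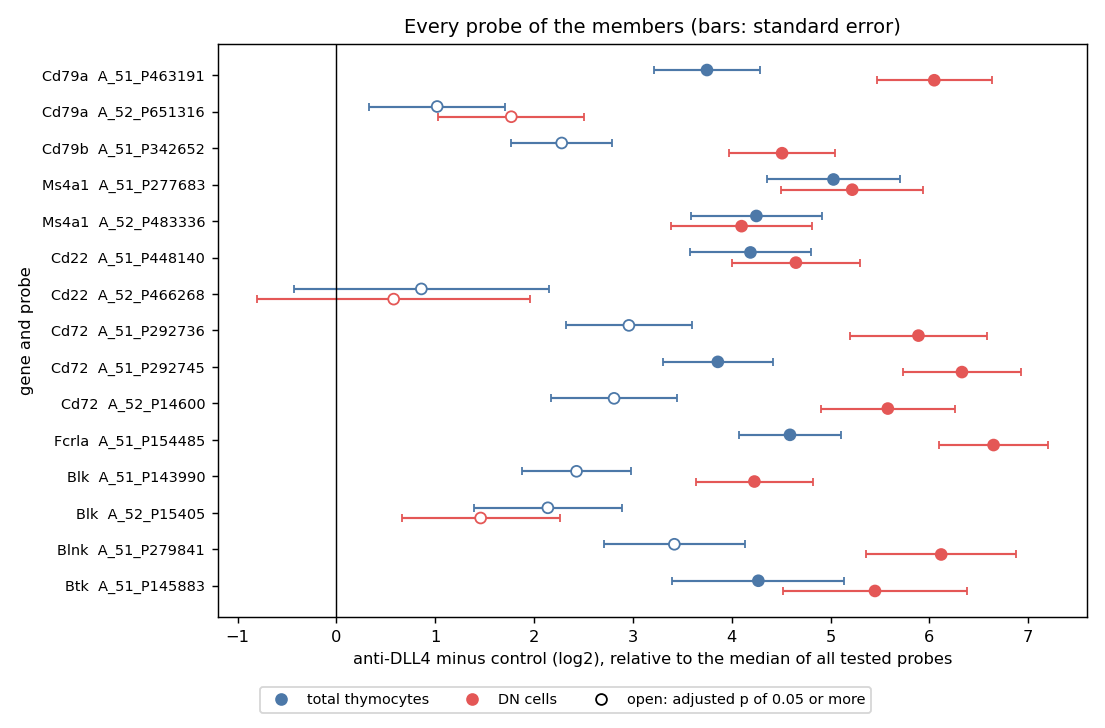
Anti-DLL4 minus control for each of the 15 probes (y axis), in log2 relative to the median of all tested probes (x axis), with standard errors, in total thymocytes and DN cells; filled points passed an adjusted p of 0.05. The probes of Cd72 and Ms4a1 lie together, while one probe each of Cd79a, Cd22 and Blk lies near 0 to 2 in DN cells and its partner lies above 4.

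Over single probes, 7 of the 15 were called higher in thymocytes (0.926% of all probes tested) and 12 of the 15 in DN cells (2.33%). The 3 probes not called in DN cells were the second ones of Cd79a, Cd22 and Blk described above, each nearer the gene's 5′ end than its partner, although the upstream probes of Ms4a1 and Cd72 were called. The labels state an amplification of RNA in 2 rounds, and the part of this in the difference between probes was not tested.

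Thymocyte arrays of both antibodies shared 3 slides, and within them the median difference of the 9 genes was 3.99, 3.34 and 3.50 relative to all genes. With slide as a block, 5 and 6 of the 9 were called in thymocytes and DN cells; the calls lost were Blnk in thymocytes (adjusted p = 0.141) and Ms4a1 (0.0676) and Blk (0.0571) in DN cells. In DN cells the single slide with both antibodies gave 4.90, with Cd79a at -0.47 and the other 8 between 2.99 and 6.55. The dimmest DN arrays were both controls, and without them 4 of the 9 were called (Ms4a1, Blnk, Cd72 and Fcrla), with 1 control array left that was assumed to vary like the other groups, and a median of 4.49. Fitted on thymocyte arrays alone, 2 of the 9 were called there (Cd22 and Fcrla), with the same differences. Some of the calls in DN cells were also lost when fitted on DN arrays alone.

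In DN1 cells none of the 9 was called (limma), against 0.041% of all genes tested. An unadjusted p under 0.05 was found for 0 of the 9 and for 1029 of all 21950 genes. All 9 differences were above 0 relative to all genes, from 0.06 for Ms4a1 to 1.31 for Btk, with a median of 0.66. In 4 of the 9 (Blnk, Btk, Cd72 and Fcrla) the 3 treated arrays lay above both controls, which held for 8.68% of all genes, with gaps of 0.01 to 0.77 between the lowest treated and the highest control array. Cd79b stood at 7.20 and 6.78 in control DN1 cells, next to 8.21, 6.95 and 7.34 with anti-DLL4.

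Fcrla in DN1 cells was at 5.30, 4.87 and 5.80 with anti-DLL4 and at 4.86 and 3.73 with the control. The lowest treated array exceeded the higher control by 0.01, and the difference was 1.04 relative to all genes with a 95% interval of -0.25 to 2.32. Ms4a1 was at 6.42, 6.05 and 5.81 against 6.73 and 5.37, so that the controls enclosed the treated arrays, with an interval of -1.60 to 1.71. For Cd72 the interval was -0.13 to 2.68 and for Btk -0.89 to 3.52. With 2 controls the intervals leave room for changes of several fold. By the ITAM probe, Cd79a was at -0.22, -1.69 and -0.99 against -2.67 and -2.61, a difference of 1.67 ± 0.64 that was not called either (adjusted p over all probes = 0.718), as none of the 15 probes was (0.0437% of all probes were). On the 2 slides with both antibodies the median difference was 0.39 and 1.65.

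**Figure D3:**
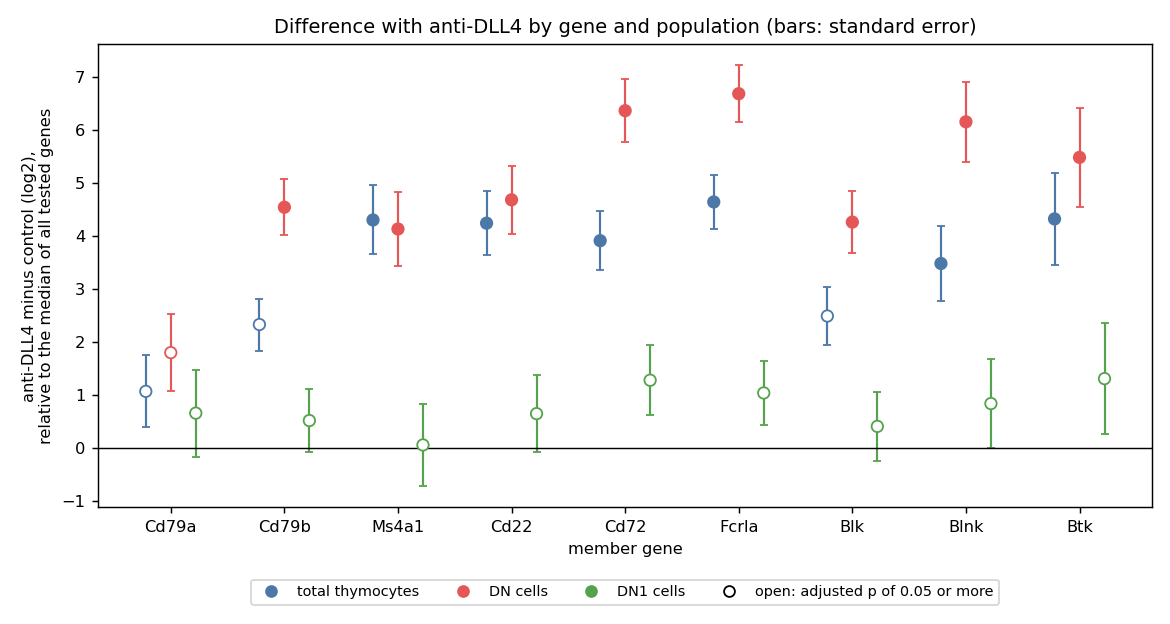
Anti-DLL4 minus control for the 9 genes (x axis), in log2 after subtracting the median over tested genes (y axis), for each of the 3 populations, with standard errors; filled points passed an adjusted p of 0.05. The DN1 points lie between 0.06 and 1.31, below those of the same gene in the other populations.

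Whether the change differed between populations was tested directly. The difference with anti-DLL4 was smaller in DN1 than in DN cells for all 9, with values from -5.62 to -1.11 relative to all genes. Of these, Fcrla alone was called, where 0.141% of all genes were called in that direction. Its value was -4.98 ± 0.81, or -5.62 relative to all genes (limma adjusted p = 0.0376). An unadjusted p under 0.05 was found for 8 of the 9 and, in either direction, for 2774 of all 22672 genes. The Fcrla call did not last when any of 12 single arrays of the 18 was left out, among them each control DN1 array (adjusted p = 0.129 and 0.143), nor without both dim DN arrays (0.196). The next gene was Cd72 at -4.41, or -5.06 relative to all genes (limma adjusted p = 0.0585). Between DN cells and thymocytes no gene of the 9 was called (limma, 0.0224% of all genes called), with a median of 1.91 larger in DN cells. There 4 of the 9 and 1865 of all 22307 genes had an unadjusted p under 0.05. Between DN1 cells and thymocytes none was called either (0.119% of all genes called), and 4 of the 9 and 1561 of all 22603 genes had an unadjusted p under 0.05.

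The order of the 6 groups was nearly the same in each gene. Treated DN and treated DN1 cells were the highest groups in 9 of 9, and their arrays overlapped in 9 of 9. Control DN1 cells ranked next in 8 of 9, treated thymocytes after them in 8 of 9, and control DN cells and control thymocytes were the lowest in 8 of 9. The exception in each case was Cd79a by its brighter probe. Averaged over the 9 genes, the level was 4.54 ± 0.46 (SD, n = 3) in treated DN, 4.28 ± 0.15 (n = 3) in treated DN1, 3.54 ± 0.69 (n = 2) in control DN1, 2.39 ± 0.72 (n = 3) in treated thymocytes, 0.32 ± 0.14 (n = 3) in control DN and -0.55 ± 0.26 (n = 4) in control thymocytes.

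With the control antibody, 5 of the 9 genes were higher in DN1 than in DN cells, of which DN1 cells are a part: Fcrla by 4.77 ± 0.60 (limma adjusted p = 0.00379), Cd72 by 4.26 ± 0.66 (0.00532), Cd22 by 3.76 ± 0.72 (0.0166), Blk by 3.29 ± 0.65 (0.0214) and Blnk by 3.99 ± 0.84 (0.0296). In all genes tested 1.11% were called in that direction. Cd79b and Ms4a1 missed the threshold (both adjusted p = 0.0629), as did Btk (0.131). Cd79a by its brighter probe had a difference of 0.00. By the ITAM probe its mean was at least 7.92-fold higher in DN1 cells (adjusted p over all probes = 0.0325), a bound that leaves out the spread between arrays. The count was 0 without the first control DN1 array, 2 without the second, 2 without the second control DN array and 0 without both dim control DN arrays. These control DN arrays are the same ones that the antibody was compared with.

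Against control thymocytes, control DN1 cells were called higher in 8 of 9 genes, by 2.40 for Cd79b up to 5.6 for Cd22. Of all genes, 0.984% were called. Cd79a by its brighter probe differed by 1.55 ± 0.78 without a call (limma adjusted p = 0.383). The groups did not overlap in 9 of 9, against 9.1% of all genes. By the ITAM probe Cd79a was called there too, with a mean at least 17.4-fold higher (adjusted p over all probes = 0.00252), by the same kind of bound. By the brightest probes, none was called higher in control DN cells than in control thymocytes (limma, 0.388% of all genes called). Every control DN array lay above every control thymocyte array in 2 of the 9, Ms4a1 and Cd22, against 6.81% of all genes. The differences ran from -0.79 to 1.82 relative to all genes. An unadjusted p under 0.05 was found for 3 of the 9 and, in either direction, for 4541 of all 21626 genes. By the upstream Blk probe, A_52_P15405, control DN cells were 3.65 ± 0.75 higher than control thymocytes (limma adjusted p over all probes = 0.0306).

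The same comparisons were made within the mice given anti-DLL4. Between treated DN1 and treated DN cells the differences ran from -0.94 to 0.45 relative to all genes, and none was called (limma, 0.00471% of all genes called). For Fcrla that difference was -0.17, with a 95% interval of -1.32 to 0.98, and for Cd72 -0.11, with -1.37 to 1.15. An unadjusted p under 0.05 was found for 0 of the 9 and for 858 of all 21221 genes. Treated DN cells were above treated thymocytes by 1.71 to 2.41 relative to all genes, by the brightest probes. None was called after adjustment (limma, 0.0248% of all genes called). All 9 of the 9 had an unadjusted p under 0.05, as did 1476 of all 20173 genes in either direction. Treated DN1 cells were above treated thymocytes by 0.99 to 2.55 relative to all genes, with none called (0.12% of all genes called). Here 7 of the 9 had an unadjusted p under 0.05, as did 2298 of all 21633 genes in either direction. By the ITAM probe, Cd79a was called in both comparisons with treated thymocytes. It was 3.51 ± 0.58 higher in treated DN cells (limma adjusted p over all probes = 0.0141) and 2.83 ± 0.58 higher in treated DN1 cells (0.0403). Relative to all probes these differences were 3.44 and 2.77.

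Of 29 further genes of B-cell receptor signalling, all on the array, 1 was higher in thymocytes (Lyn), 9 in DN cells and 0 in DN1 cells, against 1.12%, 2.74% and 0.041% of all genes tested, and none was lower in any. Their median differences relative to all genes were 1.06, 2.14 and 0.16. Many of the 29, such as Fyn, Vav1, Grb2 and Ptprc, also serve T cells.

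Lyn, the Src-family kinase that acts beside BLK, rose by 2.23 ± 0.48 in thymocytes (limma adjusted p = 0.0303) and by 4.66 ± 0.51 in DN cells (0.000207). Syk, the kinase that binds the phosphorylated ITAM, rose in DN cells, from -0.59, 0.42 and 0.85 to 4.4, 3.99 and 4.82, a difference of 4.18 ± 0.57 (limma adjusted p = 0.000768). In thymocytes the Syk difference of 1.47 ± 0.53 was not called (adjusted p = 0.186). Plcg2, the phospholipase at the end of this relay, rose by 3.19 ± 0.67 in DN cells (0.0138) and differed by 1.89 ± 0.62 in thymocytes without a call (0.149).

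Of the rest, the members with the largest called differences in DN cells were Fcgr2b, an inhibitory Fc receptor (4.30 ± 0.76, limma adjusted p = 0.00498), Cd37, a tetraspanin (3.99 ± 0.78, 0.00855), Lat2, an adaptor (3.89 ± 0.91, 0.0264), and Rasgrp3, an activator of Ras (2.96 ± 0.79, 0.0469). Bank1 and Inpp5d completed the 9 of these 29 that rose. Inhibitors and activators of the signal were both among the genes that rose. In control cells, 5 of the 29 were higher in DN1 than in DN cells (Lyn, Bank1, Dapp1, Rasgrp3 and Fcgr2b), against 1.11% of all genes tested. The median of the 29 was 2.50 relative to all genes.

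Genes of the matching relay of the T-cell receptor, which uses its own ITAM chains and kinases, were looked at in the same way. None of 12 was called in any population (limma), and their medians relative to all genes were -0.33 in thymocytes, -0.74 in DN cells and -1.95 in DN1 cells. Every treated array lay below every control in 5 of the 12 in thymocytes, 4 in DN cells and 11 in DN1 cells, and above in 0. The share of all genes in that direction was not worked out. Cd3g, an ITAM chain, differed by -1.32 ± 0.51 in thymocytes (adjusted p = 0.216), by -1.87 ± 0.54 in DN cells (0.063) and by -1.94 ± 0.61 in DN1 cells (0.504). Lat, the T-cell adaptor, differed by -2.0 ± 0.66 in DN cells (0.085), Cd3e by -1.66 ± 0.57 in thymocytes (0.163), and Cd247, the zeta chain, by -3.09 ± 0.66 in DN1 cells (0.127), where Cd5 differed by -2.26 ± 0.67 (0.421).

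**Figure D4:**
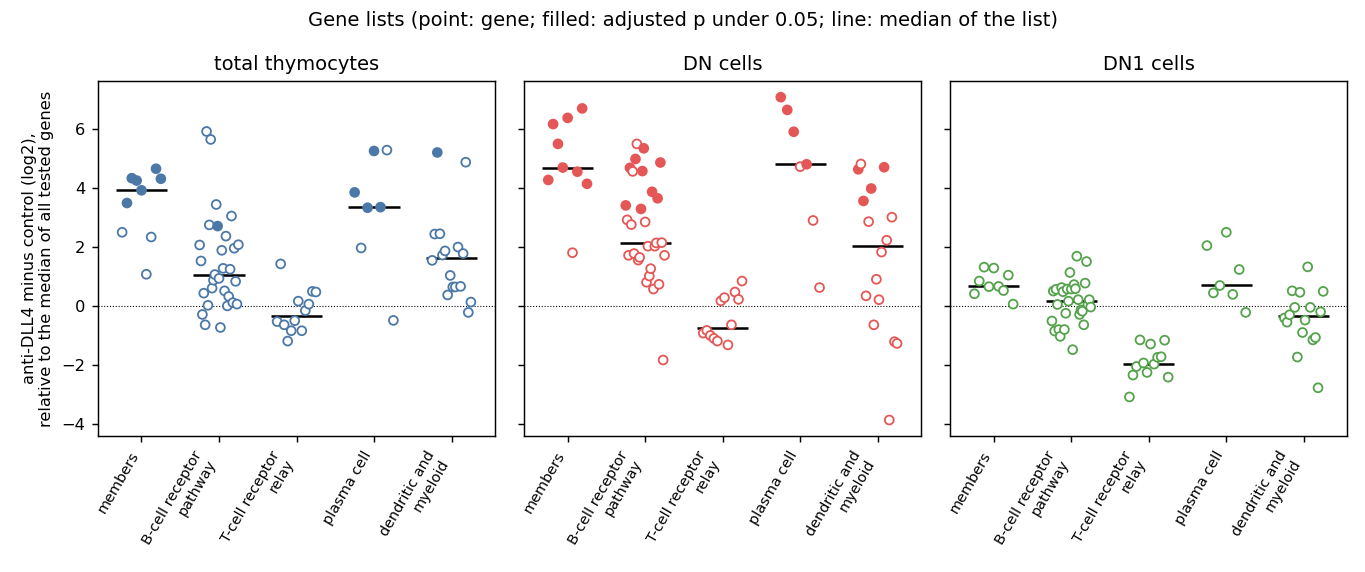
Anti-DLL4 minus control in log2 after subtracting the median over tested genes (y axis) for the 9 genes and 4 gene lists (x axis), with 1 point per gene and a line at the median, in 1 panel per population; filled points passed an adjusted p of 0.05. The medians of the 9 genes are 3.91, 4.68 and 0.66, and those of the T-cell receptor relay are -0.33, -0.74 and -1.95.

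Markers of other cells moved in the same arrays. Dendritic and myeloid cells are known to express Btk as well. Of 16 dendritic and myeloid genes, 1 was higher in thymocytes (Ccr2, 4.72 ± 0.61, limma adjusted p = 0.00107; Siglech differed by 4.38 ± 1.43 without a call, 0.143). In DN cells 4 were higher, with Ccr2 (2.87 ± 0.65, limma adjusted p = 0.0222) and Itgax (4.02 ± 0.93, 0.0244) first, Adgre1 and Csf1r being the others. In DN1 cells 0 were called. Of all genes tested, 1.12% were called higher in thymocytes, 2.74% in DN cells and 0.041% in DN1 cells. Members of the list also differed the other way in DN cells without a call, among them Mertk (-4.53, adjusted p = 0.104), Zbtb46 (-1.95, 0.0998), Xcr1 (-1.88, 0.13) and Cx3cr1 (-1.31, 0.16), which were picked after their values were seen. The mean level of the 16 ranged from -0.27 to 0.55 in treated and -1.74 to -0.22 in control thymocytes, from -2.23 to -1.22 in treated and -3.21 to -2.45 in control DN cells, and from -1.86 to -1.21 in treated and -1.26 to -1.03 in control DN1 cells. Siglech was not above background on any control DN array. The part of these cells in the result was not tested.

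Of 7 plasma cell genes, 4 were higher in thymocytes, 4 in DN cells and 0 in DN1 cells, against the same shares of all genes (1.12%, 2.74% and 0.041%). Irf4, a transcription factor of activated B cells and plasma cells, rose by 3.36 ± 0.54 in thymocytes (limma adjusted p = 0.0053) and 6.39 ± 0.58 in DN cells (6.21e-05). Mzb1, an endoplasmic reticulum protein of B cells, rose by 2.84 ± 0.48 (0.00712) and 5.21 ± 0.51 (0.000131). Xbp1, picked after its values were seen, differed by -0.96 in thymocytes (limma adjusted p = 0.276) and by -0.05 in DN cells (0.949). The mean level of the 7 was 2.20 to 2.54 in treated and -0.84 to 0.06 in control thymocytes, 2.35 to 3.19 in treated and -1.51 to -0.57 in control DN cells, and 2.53 to 3.01 in treated and 1.61 to 2.05 in control DN1 cells. These ranges did not overlap between the antibodies in any of the 3 populations. For single genes, every treated array lay above every control in 5.06% of all genes in thymocytes, 9.67% in DN and 8.68% in DN1 cells. No such share was worked out for means of lists.

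None of 8 erythroid genes (7 on the array) or of 9 thymic epithelial genes was called in any of the 3 populations (limma), but both lists set the dim control DN arrays apart. The mean erythroid level was -0.01 and -0.32 on those arrays, -3.6 on the other control and -4.61 to -3.6 on treated DN arrays. The mean epithelial level was -0.5 and -0.61 on those arrays, -3.01 on the other control and -2.01 to -1.27 on treated DN arrays. The part of this in the DN result was not tested; the calls without these arrays are given above. Of 9 genes that mark stages of T-cell precursors, Cd44 (2.63 ± 0.43, limma adjusted p = 0.00594) and Kit (2.62 ± 0.62, 0.0475) were higher with anti-DLL4 in thymocytes, against 1.12% of all genes. Rag1 (-2.36), Rag2 (-1.96), Ptcra (-1.58) and Cd8a (-0.89), picked after their values were seen, differed the other way in thymocytes but were not called. The list's median was -0.42 relative to all genes. In DN cells Ptcra, the pre-T-cell receptor alpha chain, was lower (-3.43 ± 0.89, 0.0416; 1.56% of all genes tested were called lower), and Cd8b1 differed by -3.13 ± 0.85 (0.0503).

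The genes most like the 9 over the 18 arrays were found by centring each gene on its own mean and taking the root mean square difference from the mean of the 9, among 22868 genes. Among the nearest outside the 9 were Mzb1 (0.50), Spib (0.62), AF124721 (0.63) and Rassf4 (0.65). Spib encodes an Ets-family transcription factor of B cells and plasmacytoid dendritic cells. The 9 themselves lay between 0.54 for Blk and 1.47 for Cd79a, so Mzb1 was nearer to their mean than any of them. This is a description, with no test, over arrays that fall into 6 groups.

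The promoters of the 9 genes were searched for short sequences that factors of B cells are known to bind. RefSeq gave a window of 250 bases before to 50 after the start for 6 of the 9 (GRCm38.p6). These were Fcrla, Cd72, Cd22, Blnk, Btk and Cd79a, the last not called in DN cells by its brighter probe. Cd79b, Ms4a1 and Blk had no window. Each line shows 40 or 42 bases around a match that lies before the start, in the direction of transcription, with the match in capitals.
Fcrla chr1:170927598-170927637 (-): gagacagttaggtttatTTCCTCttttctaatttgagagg
Cd72 chr4:43454651-43454690 (-): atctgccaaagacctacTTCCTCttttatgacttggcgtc
Cd79a chr7:24897340-24897379 (+): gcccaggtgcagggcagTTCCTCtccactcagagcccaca
Blnk chr19:40994327-40994368 (-): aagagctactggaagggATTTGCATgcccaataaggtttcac
Cd22 chr7:30879052-30879093 (-): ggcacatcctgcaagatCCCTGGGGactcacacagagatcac
The core letters of the PU.1 and Spi-B site, GAGGAA on either strand, were in 4 of the 6 windows and in 28.3% of all 32851 promoter windows, and all 4 matches ran on the strand opposite to transcription. They began at -37 in Fcrla, -47 in Cd72, -140 in Cd79a and 9 in Btk, counted from the start as 0. The octamer, searched as ATGCAAAT on either strand, was in Blnk at -130 and in 1.74% of all windows, and the core letters of the EBF site, CCCNNGGG, were in Cd22 at -48 and in 13.7% of all windows. The letters of an E-box, CANNTG, were in 6 of 6 windows and in 72.3% of all. A match is a run of letters and not a measured binding site.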

How the data were processed

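The members and gene lists were chosen with earlier results of these data known. Per the file headers, the deposited values are a Cy3 intensity per spot from Agilent Feature Extraction 9.5 (as the submitters' processing notes give it), with background subtraction and spatial detrending per array and no scaling across arrays. The deposited flags used are other values, 0 or 1, for spots well above background, saturated or outlying. The array and probe positions are mm8, per the file headers.

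From the intensity, log2 was taken and the 75th percentile of the array's 43537 non-control spots subtracted. Outlier spots were left out, spots of a probe averaged, and a gene given by its brightest probe. Probes were named through RefSeq accessions (26215), symbols (7270) or older symbols (3073) of GRCm38.p6, and 6868 kept the file's name. limma 3.58.1 in R 4.3.3 fitted 6 group means over 18 arrays to 23103 genes; testing needed 2 arrays well above background among the compared groups. The model was tested on simulated data. Python (pandas, matplotlib) drew the plots. The number of arrays limits the precision.

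Always described were the 9 genes, Syk, Lyn and Plcg2, with up to 4 further called pathway genes and 2 genes of each other list per comparison, and the nearest genes by their pattern. One item of this rule is not reported here. Slide 1 to 6, from the headers, served as a batch. Deviations of same-numbered arrays from their group means had correlations of -0.23 to 0.33. With so few arrays per group these cannot settle whether the numbers pair samples, and no label states it. Other settings are given in the closing section.

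The authors' deposited table gives 43225 probes as a ratio per array and does not state scale, centring or direction. Set against the intensities centred on each probe's median, 69.7% to 70.7% of its log2 values lay within 0.05, so it is linear and runs with the intensity; what was divided by elsewhere stays unknown. Its column medians were 0.638, 0.68 and 1.01 (anti-DLL4 thymocytes), 1.11, 0.999, 0.864 and 0.866 (control), 0.814, 0.741 and 0.889 (anti-DLL4 DN), 1.42, 1.21 and 0.953 (control), 0.989, 0.652 and 0.729 (anti-DLL4 DN1), and 0.874 and 0.799 (control).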

Additional observations from a re-analysis of the deposited data

Results flagged for a closer look

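For Fcrla, the test of the DN1 effect minus the DN effect gave -4.98 ± 0.81, or -5.62 relative to all genes (limma adjusted p = 0.0376). Its difference with anti-DLL4 was thus smaller in DN1 than in DN cells, with 3 against 2 and 3 against 3 arrays. It was the one member called in that test, and its adjusted p over the other settings and left-out arrays ran from 0.000863 to 0.196.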

How the results depend on the processing

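Over 15 alternatives and the leaving out of each of 18 arrays, no member changed direction relative to all genes in thymocytes or DN cells, apart from Cd79a in DN cells within slide 3 (-0.47). With each array left out in turn, 4 to 6 members were called in thymocytes (median difference 3.64 to 4.13), 8 in DN cells (4.45 to 4.87) and 0 in DN1 cells (0.38 to 1.16), 0 to 7 were higher in control DN1 than control DN cells, and 0 to 3 had a smaller effect in DN1 than in DN cells. Fitted on the groups compared alone, 2 were called in thymocytes, and without both dim control DN arrays 4 in DN cells. The median difference was 2.77 in thymocytes and 5.40 in DN cells with normexp background correction, 3.21 in thymocytes with the mean over probes, 5.48 in DN cells by the other probe (an alternative chosen after seeing the data) and 1.65 in DN1 cells within slide 5. The 5 members higher in control DN1 than control DN cells became 3 with normexp, 2 with slide as a block, 8 with array weights, and 0 on those groups alone or without the dim arrays. The 1 member with a smaller effect in DN1 cells became 3 with quantile normalization, 7 with array weights, and 0 with scaling to probes above background on all arrays, on those groups alone, with slide as a block or without the dim arrays. In DN1 cells the direction turned for Blk (-0.01) and Cd22 (-0.59) with the mean over probes, for Blk (-0.43) and Cd22 (-1.84) by the other probe, for Ms4a1 without anti-DLL4 array 2 (-0.05) or control array 2 (-0.56; range over arrays left out -0.56 to 0.7), and for Cd22 without control array 2 (-0.05; range -0.05 to 1.39). The cause was not tested.

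The replicate block, on numbers that no label states to pair the samples, called 5, 8 and 0 members in thymocytes, DN and DN1 cells. Over all genes, 235 were called higher and 81 lower in thymocytes (74.4% higher) and 572 and 326 in DN cells (63.7%). The thymocyte counts were 99 and 8 on those groups alone, and 88.1% of calls were higher with scaling to probes above background on all arrays. The DN counts were 213 and 111 on those groups alone, 281 and 213 with slide as a block, 128 and 5 without the dim arrays, and 75.4% higher with quantile normalization. Array weights called 1311 higher and 2248 lower in thymocytes and 3158 and 8835 in DN cells, with 8 and 9 members called. With slide as a block 5 and 6 members were called in thymocytes and DN cells. The second Cd22 probe was not well above background on 9 of 18 arrays, nor the Cd79a ITAM probe on any control thymocyte or DN array.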
